A study of Mus musculus with 8 samples.

Results

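Iron enters epithelial cells, is stored in ferritin, and is released from ferritin again through autophagy. This account follows 10 genes of that route in cells of the mouse esophageal epithelium sorted by their content of autophagic vesicles. The genes were given by name, as a list of 10 iron-handling genes among the 55276 gene symbols of the deposited count table, and each of the 10 was found and tested. They are Tfrc, Steap3 and Slc11a2 for uptake, Fth1, Ftl1 and Ncoa4 for storage and ferritin turnover, Slc40a1 for export, Hmox1 for the recovery of iron from heme, and Aco1 and Ireb2 for sensing.

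The epithelium came from C57BL6 mice 14 to 15 weeks old, 2 female and 2 male. The labels name no transgene, deletion or drug, so strain and age were shared by all animals. Live cells that stained for integrin beta-1 were sorted by Cyto-ID, a dye of autophagic vesicles, into a Cyto-ID Low and a Cyto-ID High fraction. Each animal gave 1 library of each fraction, 8 libraries in all. The comparison of the fractions asks how integrin beta-1 positive cells with much Cyto-ID stain differ from those with little. Values by animal are given below in the order Female1, Female2, Male1, Male2.

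Transferrin-bound iron is taken up by the transferrin receptor Tfrc (also called CD71, a surface marker by which basal cells are sorted in other work and which was not used in this sort). In the acidic endosome ferric iron is reduced by Steap3 and carried into the cytosol by Slc11a2 (DMT1). Excess iron is stored in a shell of heavy (Fth1) and light (Ftl1) ferritin chains. The receptor Ncoa4 brings ferritin to autophagosomes, a route called ferritinophagy, and the iron is freed in the lysosome. The cytosolic proteins Aco1 (IRP1) and Ireb2 (IRP2) sense iron. When iron is scarce they bind hairpins called iron-responsive elements, which blocks translation where the hairpin lies in the 5′ untranslated region and stabilises the transcript of Tfrc, which carries such hairpins in its 3′ untranslated region. Counts of RNA therefore report only part of this control.

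The hairpins are shown because they tie at least 4 of the genes to the 2 sensors. GENCODE M21 transcripts (GRCm38) were searched for a bulged C, a stem of 5 base pairs (Watson-Crick or G-T) and the loop CAGTGN, 17 bases in all and on the transcribed strand only. These 17 bases are in capitals, and each window holds 30 bases from 5′ to 3′ on the strand of the gene.
Fth1, 5′ untranslated region, chr19:9982732-9982761, plus strand: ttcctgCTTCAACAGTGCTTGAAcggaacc
Ftl1, 5′ untranslated region, chr7:45459778-45459807, minus strand: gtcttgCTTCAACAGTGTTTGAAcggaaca
Slc40a1, 5′ untranslated region, chr1:45925464-45925493, minus strand: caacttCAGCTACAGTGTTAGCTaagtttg
Tfrc, 3′ untranslated region, chr16:32631219-32631248, plus strand: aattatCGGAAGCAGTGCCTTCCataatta
Tfrc, 3′ untranslated region, chr16:32631598-32631627, plus strand: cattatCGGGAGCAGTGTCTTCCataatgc
Tfrc, 3′ untranslated region, chr16:32631663-32631692, plus strand: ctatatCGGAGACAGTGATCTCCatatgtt
Tfrc, 3′ untranslated region, chr16:32631710-32631739, plus strand: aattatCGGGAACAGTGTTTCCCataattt
A match in the 5′ region was found in 31 of 20899 genes (0.148%) and a match in the 3′ region in 129 of 21022 (0.614%). The other 6 members held no match to this strict pattern, which says only that these letters are not in their annotated untranslated regions. Slc11a2 is among these 6, although some of its transcripts have an iron-responsive element at their 3′ end, so the pattern misses such elements. A match describes the sequence and is no measurement of binding.

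Each library held 26285150 to 29301054 counts. Levels are given in CPM, the usual unit of counts relative to the scaled library total. The scaling (TMM, a trimmed mean of log ratios) sets aside the most changed genes. Each ± is an SD over 4 libraries. High was compared with Low in a fit of all genes by edgeR's quasi-likelihood test with sex as a covariate, and the Benjamini-Hochberg adjustment ran over 17344 tested genes, with 0.05 as the threshold. All 10 basal keratinocyte markers on the list used were lower in High (median log2 fold change −3.10), and 9 of 10 suprabasal markers were higher (median of all 10 3.67). All 10 proliferation markers were lower (median −2.46). In High the 10 suprabasal markers summed to 148281 to 248296 CPM and the 10 basal markers to 2752 to 4520 CPM, which goes against a basal label for that fraction. In bulk RNA, fewer cells of a type and less RNA per cell cannot be told apart, and the part of these markers in the results on iron genes was not tested. The High library of Male2 stood apart in holding 22208 detected genes, where the other libraries held 24820 to 28266, and Female2 carried gastric transcripts (a summed level of 17.5 CPM in Low and 113 in High, where the other libraries had at most 1.03). For the 10 genes, results without these animals are given where the call or direction differed or the value moved by over 1.5 times.

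Of the 10 genes, 7 differed between the fractions, 4 higher and 3 lower in High. The background was large, since 48.7% of the 17344 tested genes passed, 23.4% on the higher side and 25.3% on the lower side. In the same 7 genes the libraries of the fractions did not overlap, as was the case for 48.6% of all tested genes. Slc11a2, Hmox1, Slc40a1 and Tfrc were higher in Cyto-ID High, and Steap3, Aco1 and Ftl1 were lower. Fth1, Ncoa4 and Ireb2 did not pass. These calls are from the fit with sex as a covariate, which leaves out the pairing of libraries by animal. With the animal as a replicate block Ncoa4 and Ireb2 passed too. That made 9 of the 10 genes, beside 9336 of the 17344 tested genes. The median of the 10 log2 fold changes was −0.30, beside −0.09 for all tested genes.

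**Figure D1:**
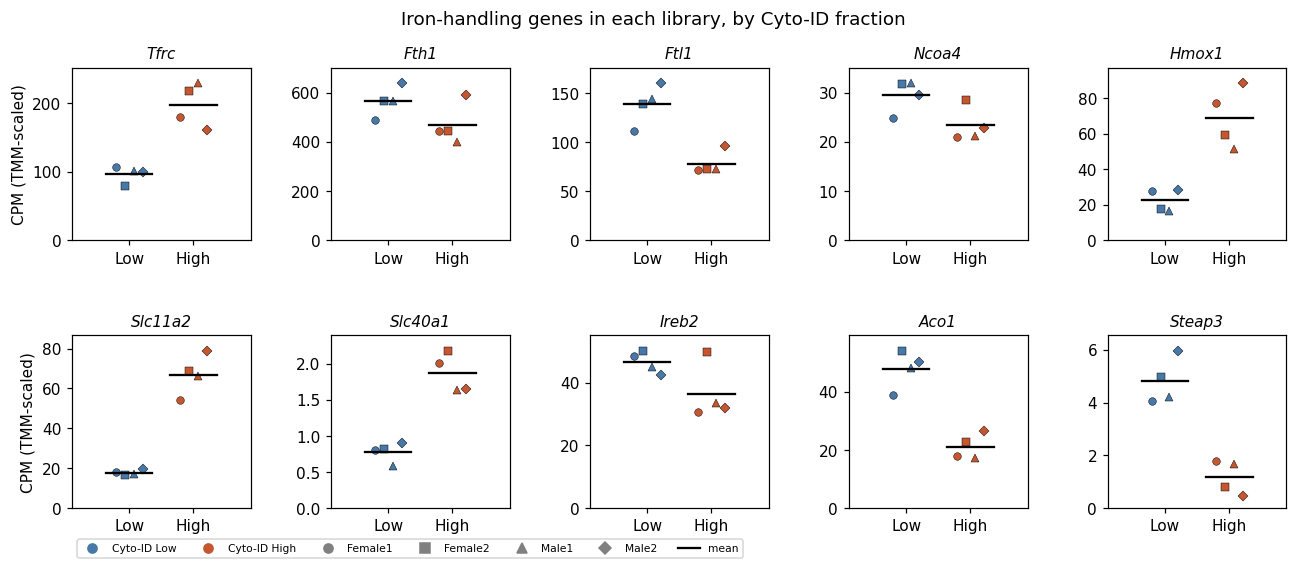
Level of each of the 10 iron-handling genes in each library. The y axes give TMM-scaled CPM and start at 0, points are single libraries (colour for fraction, shape for animal) and the line is the mean of 4. The fractions do not overlap in 7 genes, and they overlap in Fth1, Ncoa4 and Ireb2.

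Tfrc (chr16:32608920-32632794) imports iron bound to transferrin. Its level was 108, 79.3, 102 and 100.2 CPM in the 4 Low libraries and 180.4, 218, 229 and 161 CPM in the High libraries. Every High library lay above every Low library, with the smallest gain within an animal in Male2. The mean rose from 97.2 ± 12.3 to 197 ± 32 CPM, which is a log2 change of 1.02 (SE 0.17, with an adjusted p of 0.000808 in edgeR) or 2.03-fold. The rise thus went together with a fall of all 10 proliferation markers, whose summed level was 399.5 to 1148 CPM in Low and 96.4 to 235 in High.

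Slc11a2 (chr15:100387898-100425072) moves ferrous iron out of the endosome. It was at 18.1, 16.8, 17.1 and 19.4 CPM in Low and at 54.1, 68.7, 66.1 and 78.7 CPM in High. The Low libraries lay close together, and the lowest High library was still far above them. The rise from 17.8 ± 1.2 to 66.9 ± 10.1 CPM was the largest among the 10 genes, 1.90 on the log2 scale (SE 0.14, with an adjusted p of 1.40e-05 in edgeR) or 3.74-fold. Among all tested genes 2171 had a larger change in either direction. The counts do not part the transcripts of Slc11a2 with and without an iron-responsive element at their 3′ end.

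Steap3 (chr1:120190757-120272705), the reductase that hands iron to Slc11a2, went the other way. Its level was 4.08, 4.98, 4.19 and 5.95 CPM in Low and 1.78, 0.784, 1.68 and 0.463 CPM in High. All 4 High libraries lay below the Low ones, and Female2 and Male2 were the lowest of them. The mean fell from 4.80 ± 0.86 to 1.17 ± 0.65 CPM, which is a log2 change of −2.01 (SE 0.40, with an adjusted p of 0.00228 in edgeR). The High values rest on 9 to 46 counts. Within animals the difference in log2 CPM ran from −3.50 in Male2 to −1.17 in Female1.

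Ferritin makes up the storage part. Ftl1 (chr7:45457944-45459884), the light chain, was at 112, 139, 145 and 160.1 CPM in Low and at 71.9, 72.8, 73.3 and 95.8 CPM in High. The High libraries lay below all Low libraries, with Male2 above the 3 others of its fraction. Its mean fell from 139 ± 20 to 78.5 ± 11.6 CPM, by 0.82 on the log2 scale (SE 0.14, with an adjusted p of 0.00109 in edgeR).

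Reads of Ftl1 are uncertain, because the genome holds near-identical copies and the way shared reads were assigned is not given in the sources used here. Ftl1-ps1 on chromosome 13 had more counts than Ftl1 in every library (2411 to 8267 against 1672 to 5305). Of the counts on Ftl1, Ftl1-ps1, Ftl1-ps2 and Ftl2-ps together, Ftl1 took 30.4% to 35.4% in Low and 34.2% to 36.0% in High. With the 4 rows summed before the fit, an alternative chosen after the data were seen, the log2 fold change was −0.91 (edgeR adjusted p 0.000470). The family as a whole thus fell, and the share of that fall that belongs to Ftl1 itself cannot be told apart from that of the copies.

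Fth1 (chr19:9980598-9985098), the heavy chain with the ferroxidase activity, had the highest counts of the 10 genes. It was at 489, 565, 567 and 637 CPM in Low and at 444, 442, 400.4 and 591 CPM in High. The fractions overlapped, since the High library of Male2 exceeded 3 of the 4 Low libraries. All 4 animals had less in High than in Low, by 0.11 to 0.50 log2 CPM, and the fitted change of −0.27 (SE 0.17, with an adjusted p of 0.227 in edgeR) did not pass. Without the High library of Male1 it was −0.16 (edgeR adjusted p 0.478).

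Ncoa4 (chr14:32159865-32179855) is the cargo receptor of ferritinophagy. It was at 24.9, 31.7, 31.9 and 29.6 CPM in Low and at 21.0, 28.6, 21.3 and 22.9 CPM in High. The fractions overlapped in Female1 of Low and Female2 of High, although every animal had less in High. The log2 fold change was −0.33 (SE 0.15, with an adjusted p of 0.102 in edgeR) and did not pass. In a fit with a replicate block for the animal the change was −0.34, which passed (edgeR adjusted p 0.0380). It also passed without the Low library of Female1 (−0.46, adjusted p 0.0205) or the High library of Female2 (−0.46, adjusted p 0.0325).

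Slc40a1 (ferroportin, chr1:45908068-45926523) is the known exporter of iron from cells. It was near the floor of detection, at 0.803, 0.825, 0.590 and 0.906 CPM in Low and 2.01, 2.18, 1.64 and 1.65 CPM in High, from 19 to 52 counts a library. The fractions did not overlap. The log2 fold change was 1.24 (SE 0.28, with an adjusted p of 0.00423 in edgeR) or 2.37-fold.

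Hmox1 (chr8:75093621-75100589) opens heme and frees its iron. It was at 27.5, 17.8, 16.8 and 28.5 CPM in Low and at 77.4, 59.5, 51.2 and 88.3 CPM in High. In both fractions Female1 and Male2 were higher than Female2 and Male1. The rise from 22.7 ± 6.2 to 69.1 ± 16.8 CPM was 1.61 on the log2 scale (SE 0.24, with an adjusted p of 0.000456 in edgeR) or 3.05-fold. Within animals it was even, from 1.49 to 1.74 log2 CPM.

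Macrophages express Hmox1 and Slc40a1, and so their markers were measured beside these genes. None of the 12 macrophage markers was at 0 in all libraries, and their summed level was 47.7 to 77.3 CPM in Low and 22.4 to 113 CPM in High. Of 10 tested markers Cd68, a lysosomal protein, rose by 2.13 on the log2 scale, and 9 did not pass. Csf1r and Adgre1, which define the lineage, had log2 fold changes of −0.60 and −0.58 (edgeR adjusted p 0.412 and 0.520). The High library of Male2 had the lowest macrophage sum of all 8 libraries and the highest Hmox1 level, while its Slc40a1 level of 1.65 CPM was close to the lowest of High and its gain in Slc40a1 within the animal (0.81 log2 CPM) was the smallest. The High library of Female1 had the highest macrophage sum and the second-highest levels of both Hmox1 and Slc40a1. Without the High library of Male2 the log2 fold change was 1.43 for Hmox1 and 1.27 for Slc40a1 (edgeR adjusted p 0.000986 and 0.00638). Without the High library of Female1 it was 1.54 for Hmox1 and 1.25 for Slc40a1 (edgeR adjusted p 0.00175 and 0.0108), so both genes passed either way. Red cell markers, a source of heme, summed to 65.4 to 126 CPM in Low and 10.1 to 161 CPM in High, and 0 of the 5 tested passed. The part of macrophages or red cells in the changes of Hmox1 and Slc40a1 was not tested.

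Both iron sensors were lower in High on average. Aco1 (chr4:40143081-40198338), an aconitase that becomes an RNA-binding protein when it lacks its iron-sulfur cluster, was at 39.1, 54.0, 48.4 and 50.4 CPM in Low. In High it was at 17.8, 22.8, 17.2 and 26.6 CPM. The fractions were well apart, and the mean fell from 48.0 ± 6.4 to 21.1 ± 4.4 CPM, which is a log2 change of −1.19 (SE 0.18, with an adjusted p of 0.000432 in edgeR).

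Ireb2 (chr9:54863789-54912530), which is degraded when iron is plentiful, was at 48.6, 50.1, 44.9 and 42.5 CPM in Low and 30.8, 49.8, 33.6 and 31.9 CPM in High. The High library of Female2 lay among the Low libraries and the 3 others lay below them. The log2 fold change of −0.35 (SE 0.16, with an adjusted p of 0.0920 in edgeR) did not pass. Without the High library of Female2 it was −0.52 (adjusted p 0.0128), without both libraries of that animal −0.47 (adjusted p 0.0156), and with the animal as a replicate block −0.37 (adjusted p 0.0401). Without the High library of Female1 it was −0.23 (edgeR adjusted p 0.213). Whether Aco1 and Ireb2 changed by different amounts was not tested.

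Levels of different genes were compared per length, as TMM-scaled CPM per kilobase of all annotated exons, which understates genes with long minor exons. Ftl1 enters as counted, without the copies that hold most of the family's counts, so the order of Fth1 and Ftl1 holds only for reads as assigned in the deposited counts. In Low the order was Fth1 (163 ± 17), Ftl1 (104 ± 15), Tfrc (15.7 ± 2.0), Hmox1 (12.9 ± 3.6), Aco1 (10.7 ± 1.4), Ireb2 (4.91 ± 0.36), Ncoa4 (3.15 ± 0.35), Slc11a2 (2.81 ± 0.19), Steap3 (0.840 ± 0.151) and Slc40a1 (0.0868 ± 0.0150; SD, n = 4). Neighbours overlapped in Low for Tfrc and Hmox1, Hmox1 and Aco1, and Ncoa4 and Slc11a2. In High, Hmox1 (39.5 ± 9.6) stood beside Tfrc (31.9 ± 5.1) and the libraries overlapped. Slc11a2 (10.5 ± 1.6) had moved above Aco1 (4.69 ± 0.98), Ireb2 (3.85 ± 0.94) and Ncoa4 (2.50 ± 0.38). Aco1 and Ireb2 overlapped there too. Steap3 (0.206 ± 0.114) and Slc40a1 (0.207 ± 0.030) could not be ordered. The ferritin chains stayed above the other members in all libraries, Fth1 at 135 ± 24 and Ftl1 at 58.6 ± 8.7 in High.

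The scaling of libraries moved all of these values together. Krt4 and Krt13 took 10.8% to 14.0% of the counts of High libraries and 0.858% to 2.53% of Low libraries. With scaling by total counts only, the median of all tested genes shifted by −0.55 on the log2 scale. None of the 10 genes changed direction. Tfrc was then at 0.48 (edgeR adjusted p 0.0541) and Slc40a1 at 0.69 (adjusted p 0.0658), and neither passed. Fth1 (−0.84, adjusted p 0.000539), Ncoa4 (−0.91, adjusted p 0.000692) and Ireb2 (−0.92, adjusted p 0.000604) passed. Measured from the median of all genes, the change of Tfrc was 1.11 under both scalings, that of Slc40a1 1.34 and 1.32, that of Fth1 −0.18 and −0.21, that of Ncoa4 −0.24 and −0.27 and that of Ireb2 −0.26 and −0.29. Such near equality follows from the shift that all genes share, and is no separate support for any of these changes.

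**Figure D2:**
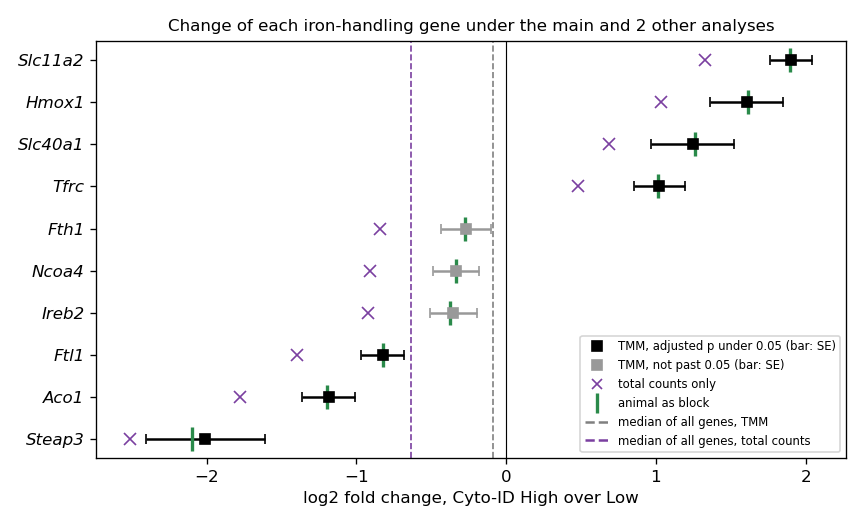
Log2 fold change of each gene, Cyto-ID High over Low, with TMM scaling (squares, bars are SE), total counts only (crosses) and the animal as a block (green ticks). Dashed lines are the medians of all tested genes at −0.09 (TMM) and −0.64 (total counts). Crosses lie to the left of the squares by about the distance between the dashed lines, and no gene crosses 0.

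Ratios of counts within a library do not depend on that scaling. Fth1 had 4.37, 4.05, 3.92 and 3.98 counts for each count of Ftl1 in Low and 6.17, 6.08, 5.46 and 6.17 in High. The ratio was higher in each High library than in any Low library. The log2 ratio rose from 2.03 ± 0.07 to 2.58 ± 0.09, a difference of 0.55 (exact permutation test, two-sided, p = 0.0286, adjusted over 2 ratios 0.0286), and 0.0286 is the smallest p that 4 against 4 libraries allow. Counts of the light chain were thus lower in High relative to those of the heavy chain.

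The second ratio set both chains against the receptor. Fth1 and Ftl1 together had 5.59, 8.88, 6.99 and 7.96 counts for each count of Tfrc in Low and 2.86, 2.36, 2.07 and 4.26 in High. No High library reached the lowest Low library, and the nearest was that of Male2. The log2 ratio was 2.86 ± 0.29 in Low and 1.47 ± 0.45 in High, a difference of −1.39 (exact permutation test, two-sided, p = 0.0286, adjusted over 2 ratios 0.0286). The exact p was 0.0571 when the Low library of Female2, Male1 or Male2 was left out (differences −1.29, −1.40 and −1.34). Both ratios moved in 1 direction in 4 of 4 animals, and a paired exact test by sign flips, which cannot go below 0.125 with 4 animals, gave 0.125 for each. With all ferritin copies summed in, the differences were 0.63 and −1.52. The size of the first ratio depended on the copies, since with them it was 1.33 to 1.41 in Low and 1.89 to 2.22 in High.

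**Figure D3:**
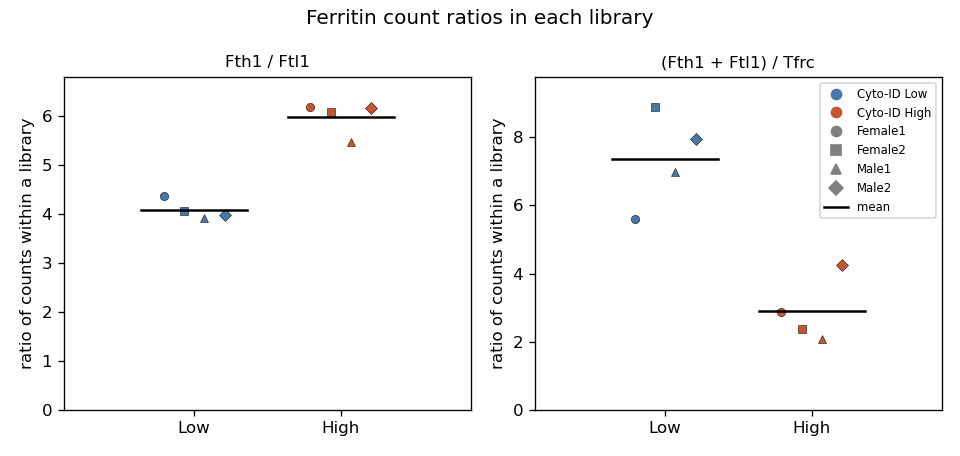
Count ratios within each library, Fth1 over Ftl1 (left) and the sum of both over Tfrc (right). Points are libraries, lines are means of 4 and the y axes start at 0. In High the left ratio is at 5.46 or above and the right ratio at 4.26 or below, outside the range of Low in both panels.

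A dependence on sex was not detectable with these animals. In a fit with an interaction of sex and fraction, 0 of 17344 genes passed (edgeR's quasi-likelihood test), with 19 at an unadjusted p under 0.05 and none of the 10 genes among them. These 19 are a share far under 0.05, so the p-values of this test ran high and the absence of calls says little. The male minus female difference of the 10 changes ran from −0.40 (Steap3, SE 0.84) to 0.17 (Slc11a2, SE 0.30). With 2 animals of each sex these errors leave room for differences as large as many of the changes themselves.

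Other genes of iron handling were read from 9 lists, 93 genes beside the members, of which 85 were tested. In this set 46 genes (54.1%) differed between the fractions, 29 higher and 17 lower, with a median log2 fold change of 0.11. All tested genes had 48.7% past the threshold and a median of −0.09. Under total counts only, 50 genes of the set passed, 11 higher and 39 lower. All 17 lower genes and 11 of the 29 higher genes kept their call and direction, and Abcb8, Cisd1, Glrx5, Uros and Vps35 turned negative. Rises named below that did not pass under that scaling are marked as such. With 1 library left out, 39 to 47 genes of the set passed.

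The medians of these short lists moved with single libraries. With members included, the median of iron import was −0.39 and became −0.75 without the High library of Male1 and −0.25 without both Male2 libraries. That of export was −0.44, and became −0.02 without the High library of Male2, −0.19 without the Low library of Male2 and 0.14 without both. The mitochondrial median was 0.07 without the High library of Female2, 0.11 without that of Male2, 0.28 without that of Female1 and 0.10 without both Female2 libraries. That of heme breakdown, 0.46 with Hmox1, was 0.29 without the High library of Male2, and that of storage, −0.27 with members, was −0.16 without the High library of Male1. For sensing (−0.12 with members) it ran from −0.23 without the High library of Female2 to −0.03 without that of Female1. The median of cytosolic cluster assembly lay between −0.10 without the High library of Female1 and 0.03 without that of Female2. Heme synthesis, with a median of 0.51, was at 0.69 without the Low library of Male1 and 0.75 without the High library of Female2. Receptor trafficking, at 0.50, was at 0.33 without the High library of Female2.

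**Figure D4:**
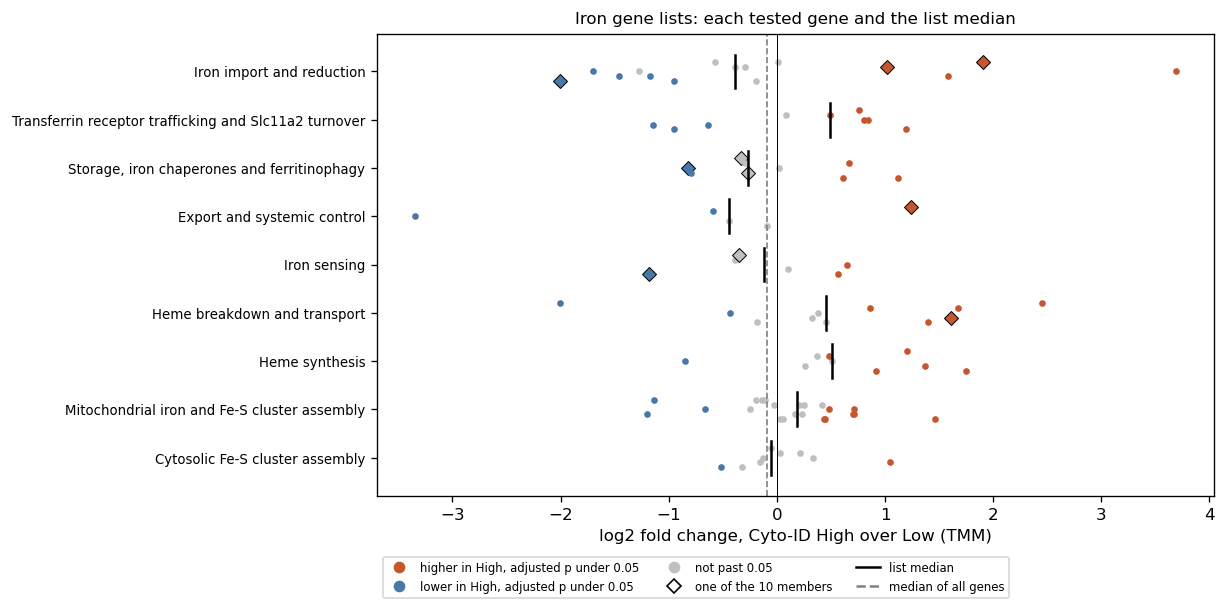
Log2 fold change (TMM) of each tested gene in 9 iron lists. Diamonds are the 10 members, coloured points passed the test and the black bar is the list median, next to the dashed median of all genes at −0.09. Heme synthesis has its median at 0.51 and iron import at −0.39.

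Among importers and reductases other than the members, 2 rose, 4 fell and 6 did not pass of 12 tested, with a median of −0.48. Slc39a14, which carries iron not bound to transferrin, fell from 11.0 ± 0.9 to 4.03 ± 1.94 CPM (log2 fold change −1.46, edgeR adjusted p 0.00340). Steap4, a reductase related to Steap3, fell by 1.17 on the log2 scale (edgeR adjusted p 0.000723). Slc22a17, a receptor for lipocalin, fell by 0.95 (edgeR adjusted p 0.0351) and did not pass with RLE size factors, another scaling (−0.88, edgeR adjusted p 0.0556). Lrp1, a receptor that clears heme bound to hemopexin among many other ligands, rose from 142 ± 35 to 421 ± 124 CPM (1.58, edgeR adjusted p 0.000701). Tfr2, the second transferrin receptor, was noticed only after its values were seen, since its mean lay under the 5 CPM set for naming genes. It had 5, 19, 8 and 11 counts in Low and 95, 90, 100 and 102 in High, a fitted rise of 3.69 (SE 0.38). The Low counts are near the floor, so the size of this rise is uncertain. Its High libraries alone were enough for the gene to pass the filter. No p-value is given for a gene picked by its values.

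Of 9 genes that move the transferrin receptor or turn over Slc11a2, 5 rose and 3 fell (median 0.50). Exoc6, an exocyst subunit needed for receptor recycling in red cell precursors, rose by 1.19 (edgeR adjusted p 0.000604). Snx3, which returns the receptor from endosomes, rose by 0.80 (adjusted p 0.00109). Mcoln1, a lysosomal channel that passes iron, rose by 0.84 (adjusted p 0.00160). Under total counts only, Exoc6 still passed (0.61, edgeR adjusted p 0.0123), and Snx3 and Mcoln1 did not (0.23 and 0.27). Nedd4l, a ubiquitin ligase of the family that marks Slc11a2 for removal, fell by 0.95 (edgeR adjusted p 0.0138).

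Storage, chaperone and ferritinophagy genes other than the members split 3 to 1 among 6 tested. Atg9a, which seeds autophagosome membranes, rose by 1.12 (edgeR adjusted p 0.000326), although exons of Ankzf1 overlap it on the other strand and the use of strand in counting is not given in the sources used here. Herc2, the ligase that marks Ncoa4 for removal when iron is plentiful, rose by 0.66 (edgeR adjusted p 0.0196). The iron chaperones went apart, Pcbp1 rising by 0.61 (adjusted p 0.0295) and Pcbp2 falling by 0.80 (adjusted p 0.00699). Under total counts only, Herc2 and Pcbp1 did not pass (0.13 and 0.01). Tax1bp1, which takes part in the delivery of Ncoa4, was at −0.30 (edgeR adjusted p 0.137).

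For export, 4 genes besides Slc40a1 were tested, of which 2 fell. Heph, the copper oxidase that works with ferroportin, fell from 17.4 ± 2.3 to 1.72 ± 0.52 CPM, by 3.34 on the log2 scale (SE 0.24, with an adjusted p of 1.36e-05 in edgeR). It thus moved against Slc40a1. Neo1, a coreceptor in hepcidin control, fell by 0.59 (edgeR adjusted p 0.00827). Hamp, which encodes hepcidin itself, was too low to be tested. In the sensing list Skp1a and Epas1 rose by 0.57 and 0.65 (edgeR adjusted p 0.0154 and 0.0473) and were at 0.00 and 0.05 under total counts only, where neither passed. Fbxl5, which targets Ireb2 for degradation, was at −0.39 (edgeR adjusted p 0.0549), and passed with the animal as a replicate block (−0.39, edgeR adjusted p 0.0256).

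Heme synthesis takes up iron in its last step. There 5 of 9 genes rose and 1 fell (median 0.51). Alad, which forms the first pyrrole, rose from 40.6 ± 8.4 to 139 ± 39 CPM (1.75, edgeR adjusted p 0.000104). Alas1, the rate-limiting first enzyme, rose by 1.37 (edgeR adjusted p 0.000221). Fech, which inserts iron into the ring, rose by 1.21 (edgeR adjusted p 0.00210). Under total counts only, Alad (1.17), Alas1 (0.78) and Fech (0.61) passed. Urod, a decarboxylase of the same route, fell by 0.85 (edgeR adjusted p 0.00203). The erythroid enzyme Alas2 did not pass, with 0.357 ± 0.147 CPM in Low against 0.508 ± 0.376 CPM in High.

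Of 10 genes of heme breakdown and transport besides Hmox1, 4 rose and 2 fell (median 0.42). Blvrb, a biliverdin reductase downstream of Hmox1, rose from 18.4 ± 3.2 to 59.4 ± 14.3 CPM (1.68, edgeR adjusted p 3.85e-05), while Blvra, the other biliverdin reductase, fell by 0.43 (adjusted p 0.0391) but did not pass with RLE size factors (−0.36, adjusted p 0.0809). Slc46a1, a folate transporter also described as a heme carrier, rose by 2.45 (edgeR adjusted p 0.000169). Pgrmc1, a heme-binding membrane protein, rose by 0.86 (edgeR adjusted p 0.00102), and did not pass under total counts only. The heme exporter Flvcr1 fell from 64.9 ± 23.6 to 15.8 ± 3.7 CPM, by 2.00 on the log2 scale (edgeR adjusted p 2.01e-05).

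In mitochondria, where iron goes into heme and iron-sulfur clusters, 7 of 22 tested genes rose, 3 fell and 12 did not pass (median 0.19). Genes encoded in the mitochondrial genome took 2.13% to 2.77% of the counts of Low libraries and 1.25% to 1.81% of High libraries. The part of this difference in the results was not tested. Abcb10, a transporter tied to heme formation, rose by 1.46 (edgeR adjusted p 3.95e-05). Hscb, a co-chaperone of cluster transfer, fell by 1.20 (adjusted p 0.000619). Fdx1, an electron donor, and Iscu, the cluster scaffold, both rose by 0.71 (adjusted p 0.00169 and 0.00363) and were at 0.14 and 0.13 under total counts only, where neither passed. In cytosolic cluster assembly 9 genes were tested, with 1 gene higher (Ndor1, 1.04, edgeR adjusted p 0.000220), 1 lower (Ciao1, −0.51, adjusted p 0.0176) and 7 not past the threshold.

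The genes most like 3 members were sought among 10007 genes of at least 5 CPM by the smallest root mean square difference of centred log2 CPM over the 8 libraries, as a description. Nearest to Tfrc were Sar1b (difference 0.11), Magt1 (0.12) and Impact (0.12). Nearest to Fth1 were Rps26-ps1 (0.05), Phb2 (0.06) and Wdsub1 (0.06), and nearest to Ncoa4 were Nap1l1 (0.06), Guf1 (0.07) and D10Wsu102e (0.07).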

How the data were processed

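RNA from sorted fractions was sequenced in bulk. The authors deposited raw counts per gene symbol, as the whole-number values with unequal library totals show. Per the submitters' processing notes, STAR 2.7.3, DESeq2 and build GRCm38 were named, without roles. The counter, annotation and use of strand are not given in the sources used here. All 8 columns matched a sample by animal and fraction. The members and lists were chosen with earlier results of these data known.

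The fit used edgeR 4.0.16 under R 4.3.3 (filterByExpr, TMM, glmQLFit, glmQLFTest, sex as covariate, two-sided, Benjamini-Hochberg). SEs were derived from the fold change and F. Log2 CPM for single animals used a prior count of 2. Precision is set by 4 animals per fraction, at 26285150 to 29301054 counts each. The fit was run on simulated counts with few changed genes, balanced in direction, and with no effect of the animal. That setting differs from these data, so the run says nothing on the scaling or the pairing here. Alternatives were RLE size factors, total counts, no filter, at least 10 counts in every library, DESeq2 1.42.0, limma-voom 3.58.1, a replicate block for the animal, no covariate, and each library left out. Leaving out Male2 or Female2 and summing the Ftl1 copies were added after the data were seen. Each animal gave both fractions, so same-named libraries were taken as pairs. Across genes, their deviations from the fraction means correlated by 0.43 (Female1), 0.32 (Female2), −0.02 (Male1) and 0.28 (Male2).

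Named beside the members were up to 4 genes per list past the threshold with a mean of at least 5 CPM, by size of change; 1 gene chosen by this rule is not reported here. Older symbols of 4 list genes were matched through RefSeq. Gene positions and exon lengths are from GENCODE M21 (GRCm38). Of the marker lists, 3 of 8 Langerhans and dendritic, 1 of 6 fibroblast, 0 of 6 endothelial and 1 of 6 muscle markers tested fell, none rose, and no gastric marker was tested.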

Additional observations from a re-analysis of the deposited data

Results flagged for a closer look

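Single libraries stood apart in 3 of 24 groups of 4 libraries tested with Dixon's criterion, which by chance singles out about 1 group in 20. The Ftl1 level of the High library of Male2 was 95.8 CPM, where the other High libraries had 71.9 to 73.3 CPM. Ireb2 in the High library of Female2 was at 49.8 CPM, where the others had 30.8 to 33.6 CPM. The log2 ratio of Fth1 to Ftl1 in the High library of Male1 was 2.45, below the 2.60 to 2.63 of the others.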

How the results depend on the processing

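Of the 10 genes, Ftl1, Hmox1, Slc11a2, Aco1 and Steap3 kept their direction and their call in each alternative that gave them a value, and none of the 10 reversed. Steap3 gave no value with at least 10 counts in every library. Scaling by total counts only ended the calls of Tfrc (0.48) and Slc40a1 (0.69) and added those of Fth1 (−0.84), Ncoa4 (−0.91) and Ireb2 (−0.92). It gave 10708 differing genes, 20.5% of them higher, in place of 8440 and 48.0%. With members included, the list medians of receptor trafficking (−0.07), heme breakdown (−0.14) and mitochondrial iron (−0.38) turned negative, and that of heme synthesis was 0.02. Ireb2 also passed with at least 10 counts in every library (−0.38) and without both Female2 libraries (−0.47). With the replicate block Ncoa4 (−0.34) and Ireb2 (−0.37) passed, which made 9 members, and no other call among the 10 changed. With single libraries left out, Ncoa4 ran from −0.46 to −0.27 and Ireb2 from −0.52 to −0.23. The High minus Low difference in the log2 ratio of ferritin to Tfrc ran from −1.59 to −1.24, with an exact p of 0.0571 in 3 of the 8 cases. Paired sign flips over 4 animals, which cannot go below 0.125, gave 0.125 for both ratios (differences 0.55 and −1.39). Depth limits Slc40a1 and Steap3, which rest on as few as 19 and 9 counts.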
